A study of Mus musculus with 15 samples.

Results

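Brain endothelium lines the capillaries of the brain, and 10 genes that mark it or build its barrier were followed: *Cldn5*, *Pecam1*, *Flt1*, *Tek*, *Ly6c1*, *Slco1c1*, *Slc2a1*, *Abcb1a*, *Mfsd2a* and *Kdr*. They were picked by symbol from a table of 23235 genes, and all 10 were present. RNA-seq was run on the cortex of adult male mice, either wild type (WT) C57BL/6J or B6(Cg)-Snord116tm1.1Uta/J, the strain called *Snord116del* (+/-), which lacks the *Snord116* cluster on the chromosome inherited from the father. Cortex was taken at Zeitgeber times (Zt) +6 and +16, the first in the light phase and the second in the dark phase. At Zt +6 there were 3 WT and 2 *Snord116del* mice, and at Zt +16 there were 2 of each, and no other allele or agent was named for any group. *Snord116* is the imprinted locus whose loss causes Prader-Willi syndrome, and *116HG* is the spliced host-gene RNA left after the small nucleolar RNAs are cut out. The deletion is carried by all cells of the animal and whole cortex was used, so no value below belongs to endothelium alone. DNA bound by *116HG* was measured in adult brain by ChIRP-seq, in which biotinylated oligos against an RNA pull down the chromatin attached to it, with 2 WT *116HG* libraries and single libraries for *Snord116del* brain with *116HG* oligos and for WT and *Snord116del* brain with nonspecific control (NSC) oligos.

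Endothelial cells of the brain differ from those of other organs in being sealed to each other by tight junctions and in carrying little across by vesicles, so that nutrients enter by dedicated transporters and many drugs are pumped back into the blood. VEGF receptors and the angiopoietin receptor maintain the vessel, while Wnt signals from neural cells set up and keep the barrier state. Endothelium makes up a small part of cortical tissue, and in a whole-tissue sample fewer endothelial cells and less RNA per cell cannot be told apart.

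Each expression value is 1 FPKM (fragments mapped to a gene, divided by its transcript length and by the size of the library) that stands for all mice of a group. There is no value per mouse, so no spread between mice and no error could be computed and no test was run, and the number of reads behind a value is not given by these values. A gene was said to pass the fold rule when its FPKM + 1 differed by at least 1.5-fold between 2 groups and reached 1 FPKM in the higher one. The rule was applied to 10297 genes that averaged 1 FPKM or more over the 4 groups, called tested genes below, although nothing was tested statistically. The 4 groups differed as a whole. The median FPKM of the tested genes was 3.17 in WT against 5.63 in *Snord116del* at Zt +6, then 2.90 and 4.00 at Zt +16. At Zt +6 the median log2 difference between *Snord116del* and WT went from -0.11 in the 2487 genes with the shortest transcripts, up to 1861 bases, to 1.11 in the 2486 with the longest, from 4464 bases. The labels of both *Snord116del* mice and of 1 of the 3 WT mice at Zt +6 name an earlier version of the data file, and those of the mice at Zt +16 do not. What part these differences have in the values below was not tested.

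Of the 10 genes, 8 were tested genes, and *Tek* and *Kdr* fell below the minimum. Medians over the 10 genes given below include these 2, while medians over all tested genes leave out genes below the minimum. Among the 8, *Pecam1*, *Flt1* and *Abcb1a* reached a mean of 1 FPKM only through the *Snord116del* Zt +6 group, and without it their means were 0.711, 0.417 and 0.795 FPKM. FPKM is a level per transcript length, so genes can be ranked within a group. *Ly6c1* was the highest and *Kdr* the lowest of the 10 in every group. *Slc2a1*, *Mfsd2a* and *Slco1c1* took ranks 2 to 4 in every group, in changing order, and *Cldn5*, *Abcb1a*, *Pecam1*, *Flt1* and *Tek* took ranks 5 to 9. Whether neighbours in this order differ beyond the spread between mice cannot be said. In WT cortex at Zt +6 *Ly6c1* stood at the 97.0 percentile of all genes in the table, *Cldn5* at the 68.8 percentile and *Kdr* at the 34.9 percentile. The summed FPKM of the 10 genes was 57.5 in WT against 105 in *Snord116del* at Zt +6, then 68.4 and 98.0 at Zt +16. *Ly6c1* made up most of each sum, and without it the sums were 24.0 and 49.6, then 24.9 and 38.8.

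**Figure D1:**
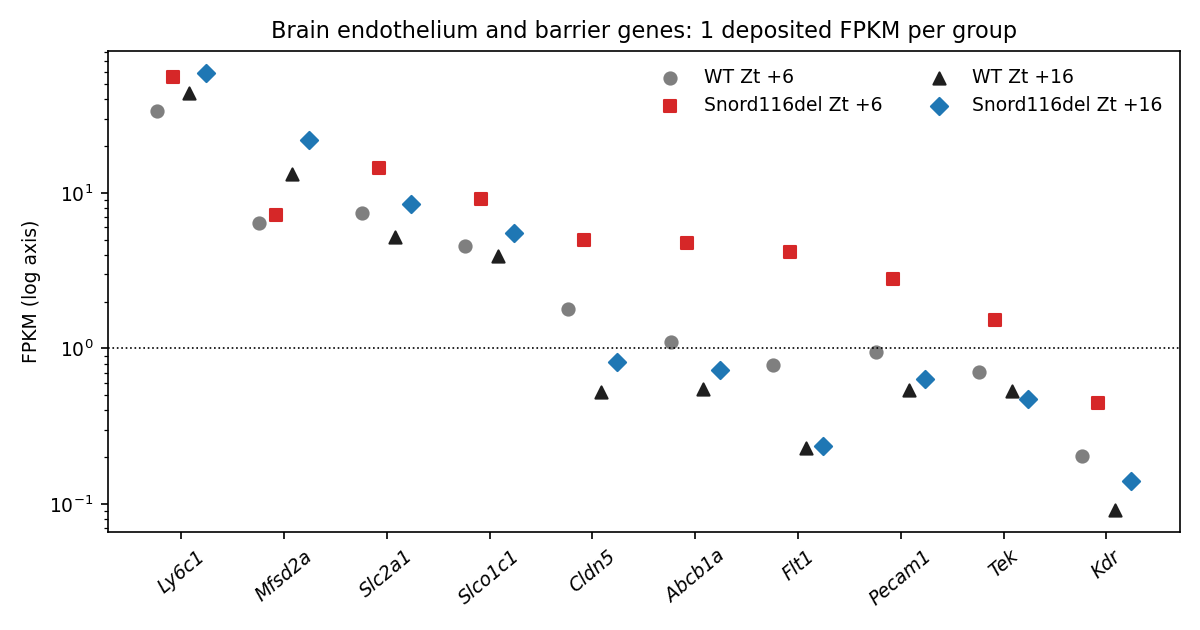
FPKM (log axis) of each of the 10 genes, 1 deposited value per group, ordered by mean level, with no error bars because the table holds none; the dotted line is 1 FPKM. The red squares (*Snord116del* Zt +6) are the highest of the 4 for 8 genes, while *Mfsd2a* and *Ly6c1* are highest in *Snord116del* at Zt +16 (21.8 and 59.2 FPKM).

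*Cldn5* encodes claudin-5, the main claudin of the tight junctions that seal brain endothelium (chr16:18776940-18778353, plus strand, NCBIM37, the assembly of mm9). Its level was 1.79 FPKM in WT against 4.99 in *Snord116del* at Zt +6, then 0.526 in WT against 0.817 in *Snord116del* at Zt +16. Both groups at Zt +16 lay below both groups at Zt +6. The level in *Snord116del* was 2.78-fold that of WT at Zt +6 and 1.55-fold at Zt +16. On the log2(FPKM + 1) scale these differences were 1.10 and 0.25, and only the first passed the fold rule.

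*Mfsd2a* encodes the transporter that carries lysophosphatidylcholine with docosahexaenoic acid into the brain and keeps vesicle traffic through the endothelium low (chr4:122624093-122638431, minus strand). It had 6.43 FPKM in WT against 7.23 in *Snord116del* at Zt +6, then 13.2 in WT against 21.8 in *Snord116del* at Zt +16. The order of the times was the opposite of that of *Cldn5*. Its difference between genotypes was 0.15 on the log2(FPKM + 1) scale at Zt +6 and 0.68 at Zt +16, and only the second passed the fold rule. *Cldn5* and *Mfsd2a* were the only ones of the 10 past the fold rule between times in WT, in opposite directions, so the 250 bases before their start sites are shown side by side. They are from RefSeq, assembly GRCm38.p6, at chr16:18776597-18776846 for *Cldn5* (plus strand) and chr4:122961189-122961438 for *Mfsd2a* (minus strand), each read toward the gene. Capitals mark short motifs found on either strand.
Cldn5: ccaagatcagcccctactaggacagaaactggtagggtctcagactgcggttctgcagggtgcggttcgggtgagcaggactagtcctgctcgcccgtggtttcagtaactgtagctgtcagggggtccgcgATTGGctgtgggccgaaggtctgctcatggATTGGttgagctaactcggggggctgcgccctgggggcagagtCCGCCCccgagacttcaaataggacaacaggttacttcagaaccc
Mfsd2a: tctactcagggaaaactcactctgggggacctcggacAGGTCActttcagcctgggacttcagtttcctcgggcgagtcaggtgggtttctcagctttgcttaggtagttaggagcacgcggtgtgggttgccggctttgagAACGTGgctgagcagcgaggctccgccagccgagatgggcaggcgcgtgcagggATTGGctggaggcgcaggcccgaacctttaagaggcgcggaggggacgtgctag

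The motifs searched were the E-box (CACGTG), the E-prime box (CACGTT), the nuclear receptor element (AGGTCA), the ETS site (GGAAGT), the CCAAT box (CCAAT), the GC box (GGGCGG) and the TATA box (TATAAA), each on both strands, and none of those marked overlaps another. Both promoters held the CCAAT box on the strand opposite to that printed, and on either strand 34.5% of the 27025 mouse promoters of this length held it. *Cldn5* had a GC box, held by 32.9% of promoters. *Mfsd2a* had an E-prime box and a nuclear receptor element, held by 3.9% and 13.8%. A RefSeq promoter was matched for 9 of the 10 genes, all but *Pecam1*. The CCAAT box was also found in *Ly6c1* and *Slco1c1*. Among the 9, the E-prime box was found in *Mfsd2a* only, the nuclear receptor element in *Ly6c1* and *Mfsd2a*, the ETS site in *Flt1*, *Slco1c1* and *Kdr*, the GC box in *Cldn5*, *Flt1*, *Slc2a1* and *Kdr*, the TATA box in *Flt1* and *Ly6c1*, and the E-box, held by 6.0% of all promoters, in none. Over all promoters, 20.0% held the ETS site and 13.0% the TATA box. GC content of the window ran from 40.4% in *Abcb1a* to 70.4% in *Flt1*, beside a median of 52.0% over all promoters, and *Slco1c1* and *Abcb1a* had no CG step in it while *Flt1* had 23. A match is a stretch of letters and not a bound site.

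*Pecam1* encodes CD31, the adhesion molecule at the borders between endothelial cells (chr11:106515531-106611942, minus strand). It had 0.951 FPKM in WT against 2.81 in *Snord116del* at Zt +6, then 0.541 and 0.640 at Zt +16. *Snord116del* at Zt +6 stood above the other 3 groups, all below 1 FPKM. The genotypes differed by 0.97 on the log2(FPKM + 1) scale at Zt +6 and by 0.09 at Zt +16. *Pecam1* was also the only one of the 10 genes at which peaks of the 2 WT *116HG* libraries overlapped directly. The replicate 1 peak at chr11:106524233-106524316 covered the replicate 2 peak at chr11:106524242-106524308. Replicate 2 had 3 peaks in the gene, all in introns, among them one at chr11:106559024-106559092. The overlapped pair and this peak are shown because the longest run common to the 3 replicate 2 peaks, in capitals, was a row of T with a final G, 14 bases long. The overlapped pair is on the plus strand of NCBIM37 and the last on its minus strand, so the RNA of *Pecam1*, copied from the plus strand, has A where T is printed in the pair and T in the last.
Replicate 1, overlapped: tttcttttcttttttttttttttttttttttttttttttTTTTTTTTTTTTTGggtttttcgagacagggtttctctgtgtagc
Replicate 2, overlapped: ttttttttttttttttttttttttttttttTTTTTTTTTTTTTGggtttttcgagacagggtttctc
Replicate 2, last: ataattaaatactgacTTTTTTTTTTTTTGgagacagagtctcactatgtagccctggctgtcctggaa
The longest row of a single base was 43 bases in the overlapped pair and 13 in the last. The 14-base run occurs 110481 times in the genome, both strands counted. It was in 27.1% of the replicate 2 peaks that could be read from the reference, in 5.75% of those of replicate 1, in 4.85% of the WT NSC peaks, and in 0.393% and 0.589% of the *Snord116del* *116HG* and NSC peaks. How well short reads can be placed in such rows was not tested.

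*Flt1*, *Kdr* and *Tek* encode receptors. *Flt1* (chr5:148373180-148537587, minus strand) is VEGF receptor 1, which binds VEGF tightly and limits its action on *Kdr*, and had 0.786 FPKM in WT against 4.17 in *Snord116del* at Zt +6, then 0.229 and 0.235 at Zt +16. *Snord116del* was 5.31-fold WT at Zt +6 and 1.03-fold at Zt +16, so that the first ratio was 5.15 times the second, as deposited the widest gap of the 10 genes. With the trend on transcript length removed, as described below, its differences were 0.39 and -0.24 on the log2 scale, and those of *Cldn5*, 1.11 and -0.23, lay farther apart. *Kdr* (chr5:76328852-76374483, minus strand) is VEGF receptor 2, the main signalling receptor for VEGF in endothelium. It had 0.203 and 0.448 FPKM in WT and *Snord116del* at Zt +6, then 0.0913 and 0.141 at Zt +16, below 1 FPKM in every group. *Tek* (chr4:94405980-94541667, plus strand) encodes Tie2, the receptor for angiopoietins that keeps vessels quiescent. Its level was 0.703 FPKM in WT against 1.53 in *Snord116del* at Zt +6, then 0.532 and 0.475 at Zt +16. All 3 receptors were highest in *Snord116del* at Zt +6, and as deposited *Tek* alone of the 10 was lower in *Snord116del* than in WT at Zt +16, by 0.06 on the log2(FPKM + 1) scale.

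*Slc2a1* encodes GLUT1, the glucose transporter of the barrier, which astrocytes also make (chr4:118781316-118809935, plus strand). It had 7.43 FPKM in WT against 14.5 in *Snord116del* at Zt +6, then 5.23 and 8.49 at Zt +16. *Snord116del* lay above WT at both times and passed the fold rule at both, with differences of 0.88 and 0.61 on the log2(FPKM + 1) scale. *Slco1c1* encodes a carrier of thyroxine into the brain (chr6:141472907-141518241, plus strand). Its level was 4.55 FPKM in WT against 9.16 in *Snord116del* at Zt +6, then 3.94 and 5.54 at Zt +16. The differences were 0.87 and 0.41, and only the first passed the rule. *Slco1c1* followed *Slc2a1* closely: the ratio of their FPKM, which multiplying a group by a constant cannot alter, was 0.612 and 0.632 in WT and *Snord116del* at Zt +6, then 0.753 and 0.652 at Zt +16.

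*Abcb1a* encodes the P-glycoprotein of mouse brain capillaries, the pump that returns drugs to the blood (chr5:8660077-8748575, plus strand). It had 1.10 FPKM in WT against 4.73 in *Snord116del* at Zt +6, then 0.551 and 0.728 at Zt +16. *Snord116del* at Zt +6 was 4.28-fold WT, and at Zt +16 the ratio was 1.32. Its near copy *Abcb1b* had 0.164, 0.615, 0.120 and 0.131 FPKM in WT and *Snord116del* at Zt +6 and then at Zt +16, and how reads common to both were shared out is uncertain. *Ly6c1* encodes a small surface protein anchored by a lipid, abundant on brain endothelium (chr15:74875447-74879260, minus strand). It had 33.5 FPKM in WT against 55.5 in *Snord116del* at Zt +6, then 43.6 and 59.2 at Zt +16. Both *Snord116del* groups lay above both WT groups. *Ly6c1* sits in a family of near copies, so its level carries the same uncertainty: *Ly6c2* was between 0.115 and 0.695 FPKM in all groups, and *Ly6a* had 19.9, 34.4, 27.5 and 37.5 FPKM in the order above.

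At Zt +6 the question was whether the deletion goes with other transcript levels in the light phase. All 10 genes were higher in *Snord116del*, beside 77.6% of all tested genes, and 7 passed the fold rule, all upward: *Flt1*, *Abcb1a*, *Cldn5*, *Pecam1*, *Slc2a1*, *Slco1c1* and *Ly6c1*. Over all tested genes 56.9% passed, 49.3% upward and 7.62% downward, so a count of 7 is read against a background in which about every other gene was called higher. Of the 7, *Flt1*, *Abcb1a* and *Pecam1* were tested only through the group in which they are high, so the minimum itself favours a difference. When the minimum was set on the other 3 groups, 4 of 5 genes passed, beside 52.6% of 9212 genes, 44% upward. The median log2 difference was 0.88 over the 10 genes and 0.57 over all tested genes. The largest differences were those of *Flt1*, 1.53, and *Abcb1a*, 1.44, and the smallest was that of *Mfsd2a*, 0.15, at the 28.6 percentile of the tested genes.

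At Zt +16, in the dark phase, 9 of the 10 were higher in *Snord116del*, beside 96.8% of all tested genes, and 2 passed, *Slc2a1* and *Mfsd2a*, both upward. Over all tested genes 19.2% passed at this time, 19% upward. The median difference was 0.20 over the 10 genes and 0.35 over all tested genes. The 10 include *Tek* and *Kdr*, below the minimum, with -0.06 and 0.06, so the 2 medians cover unlike sets. *Mfsd2a* stood at the 88.5 percentile and *Slc2a1* at the 83.1 percentile, while *Flt1*, at 0.01, stood at the 3.57 percentile. The ratio of the genotype fold at Zt +6 to that at Zt +16 was 5.15 for *Flt1*, 3.24 for *Abcb1a*, 2.50 for *Pecam1*, 2.43 for *Tek* and 1.79 for *Cldn5*, was between 1.20 and 1.43 for *Slc2a1*, *Ly6c1*, *Kdr* and *Slco1c1*, and was 0.683 for *Mfsd2a*. As deposited, *Mfsd2a* was thus the only one of the 10 whose genotype difference was larger at Zt +16. With the groups at the same median, the signed value was higher at Zt +16 for *Mfsd2a*, *Slc2a1* and *Ly6c1*. *Slc2a1* had 0.12 at Zt +6 and 0.21 at Zt +16, *Mfsd2a* -0.57 and 0.24, and *Ly6c1* -0.10 and -0.02. Taken by size without the sign, *Slc2a1* and *Tek*, with 0.14 and -0.23, were larger at Zt +16, and *Mfsd2a* was not.

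Between times in WT, *Mfsd2a* passed upward at Zt +16 and *Cldn5* downward, beside 16% of all tested genes, 5.71% upward and 10.3% downward. Their log2 differences were 0.94 and -0.87, at the 99.3 and 3.69 percentiles of the tested genes. Of the rest, *Ly6c1* was higher at Zt +16 and 7 were lower. The median over the 10 genes was -0.25, and over all tested genes -0.04. In *Snord116del*, 6 passed downward at Zt +16, *Flt1* (-2.07), *Abcb1a* (-1.73), *Cldn5* (-1.72), *Pecam1* (-1.22), *Slc2a1* (-0.71) and *Slco1c1* (-0.63), and *Mfsd2a* passed upward (1.47), beside 64% of all tested genes, 25% upward and 39.1% downward. With the minimum set on the other 3 groups, *Flt1*, *Abcb1a* and *Pecam1* left and 4 of 5 genes passed, 3 of them downward, beside 61.2%, 32.9% downward. The median was -0.74, against -0.24 over all tested genes. The 4 comparisons share groups: a high value in *Snord116del* at Zt +6 makes both a large genotype difference at that time and a large fall to Zt +16, and the comparisons are not independent of each other.

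**Figure D2:**
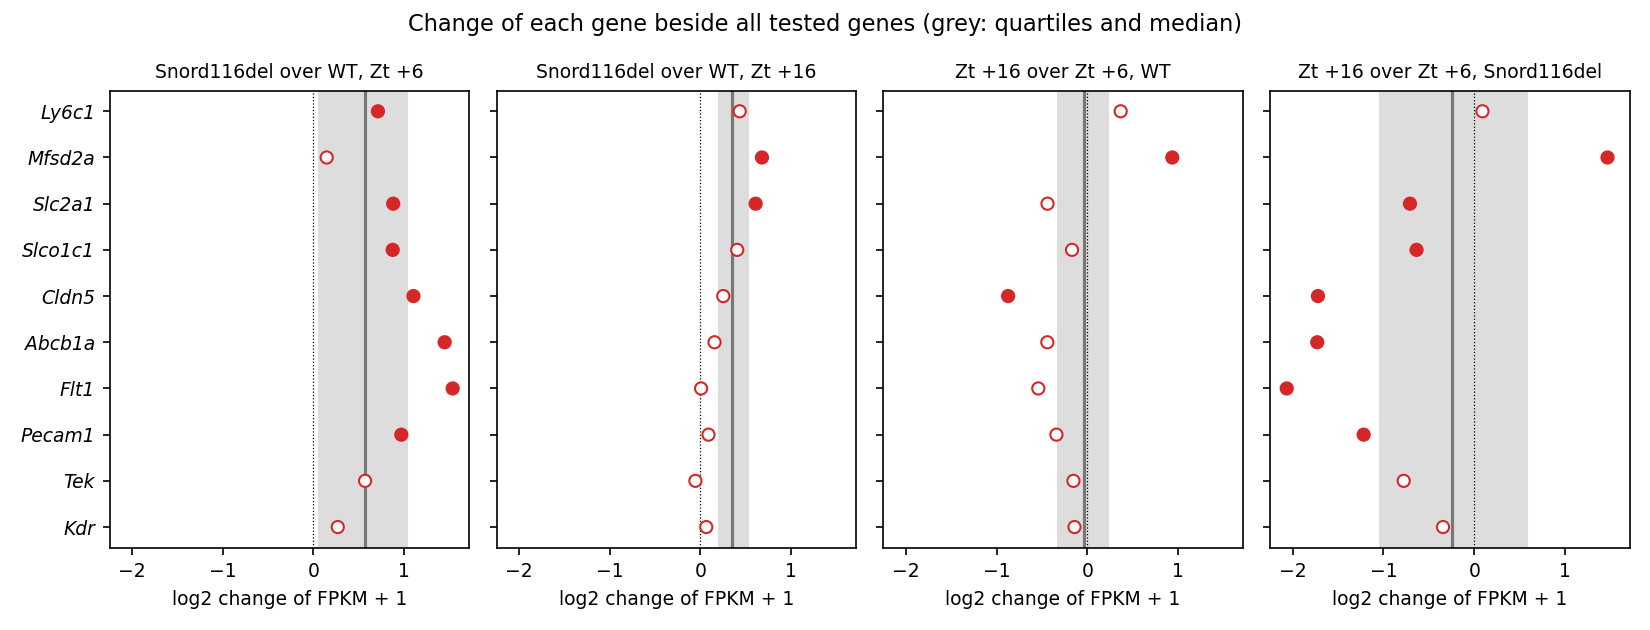
Difference in log2(FPKM + 1) of the 10 genes in each of the 4 comparisons, filled where the fold rule was passed; the grey band holds the middle quartiles of the 10297 tested genes and the grey line their median. At Zt +6 the tested genes are shifted to a median of 0.57, and in both comparisons of times *Mfsd2a* lies on the other side of 0 from *Cldn5*.

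Because the groups differed as a whole, the values were put on other scales. After the groups were brought to the same median over the tested genes, the median difference of all tested genes at Zt +6 was -0.06, and 2 of the 10 genes passed upward, *Flt1* (0.98) and *Abcb1a* (0.86), beside 39.5% of all tested genes, 15% upward and 24.4% downward. *Cldn5* and *Pecam1* then had 0.47 and 0.44, *Tek*, *Slco1c1*, *Slc2a1* and *Kdr* lay between 0.07 and 0.15, *Ly6c1* changed sign to -0.10 and *Mfsd2a* was at -0.57. Under quantile normalization 3 passed, *Flt1*, *Abcb1a* and *Ly6c1*, beside 41.7%. With the trend on transcript length removed, 2 passed, *Cldn5* (1.11) and *Ly6c1* (1.12), whose transcripts, of 1414 and 840 bases, are the shortest of the 10, and *Flt1* and *Abcb1a*, of 6895 and 4997 bases, came to 0.39 and 0.49. Beside them 24.8% of the genes with a length passed. Scaled to the same FPKM total, the same 7 genes passed upward as without scaling. The median was then 0.90 over the 10 genes and 0.60 over all tested genes. No gene passed at Zt +6 on every one of these scales. The split of the calls over all tested genes also moved with the same median: at Zt +16 between genotypes 1.74% passed, 1.22% upward and 0.515% downward, between times in WT 20.2%, 10.8% upward and 9.48% downward, and between times in *Snord116del* 61.5%, 35% upward and 26.5% downward. Across the 9945 tested genes with a length, Spearman's rho between length and the difference was 0.65 at Zt +6, as a description over genes measured in the same groups, and across the 10 genes it was 0.27.

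Between times, some calls held on most scales and others did not. In WT, *Cldn5* passed downward under all alternatives run except a fold of at least 2, with values from -0.79 under quantile normalization to -1.60 at a pseudocount of 0.1. *Mfsd2a* passed upward under all but a fold of at least 2 and scaling to the same FPKM total, where it had 0.55. In *Snord116del*, *Cldn5* passed downward under every alternative run, from -1.14 to -2.73. *Mfsd2a* passed upward under all but scaling to the same total, where it fell from 1.47 to 0.46. *Slco1c1* and *Slc2a1* lost their calls with the same median, at -0.20 and -0.25, and at a fold of at least 2, and *Slco1c1* also did under quantile normalization (-0.41) and with the trend on length (-0.51) or GC content (0.04) removed. *Ly6c1*, at 0.09 as deposited, turned and passed downward under quantile normalization (-0.82), the same total (-0.98) and with the length trend removed (-1.24). A ratio of 2 genes in a group does not depend on such a constant either: *Mfsd2a* had 3.59 times the FPKM of *Cldn5* in WT and 1.45 times in *Snord116del* at Zt +6, and 25.1 and 26.6 times at Zt +16. Against *Slc2a1* its ratio was 0.866 and 0.498 at Zt +6, then 2.53 and 2.56 at Zt +16. In both ratios the Zt +16 groups lay close together and above both Zt +6 groups.

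**Figure D3:**
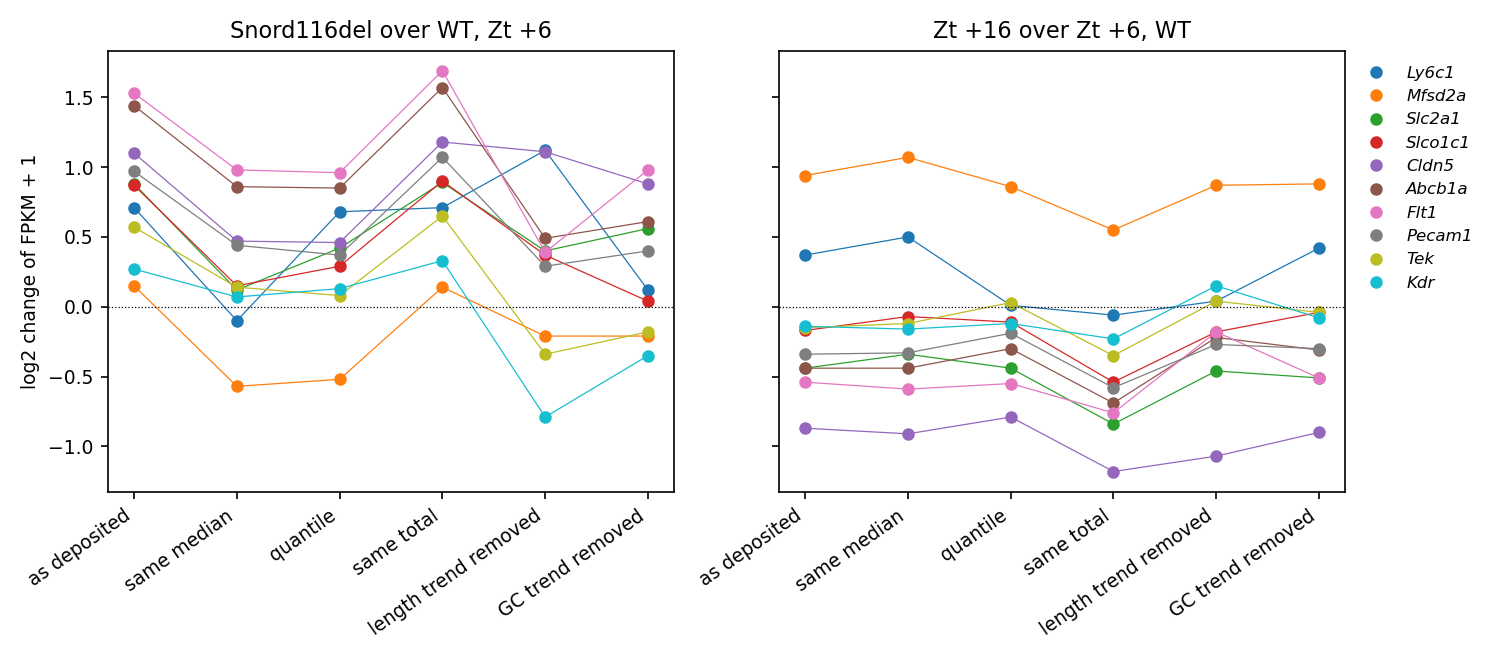
Difference in log2(FPKM + 1) of each gene as deposited, on rescaled groups and with the trend on transcript length or GC content removed, for *Snord116del* over WT at Zt +6 (left) and Zt +16 over Zt +6 in WT (right); lines join the values of a gene. On the left the order of the genes changes with the scale, and on the right *Mfsd2a* stays the highest (0.55 to 1.07) and *Cldn5* the lowest (-0.79 to -1.18).

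Genes with the same roles were counted in lists, some of which share genes, and a shared gene is counted in each. *Cdh5*, for example, is in both the endothelial and the junction list, and *Ctnnb1* in both the junction and the Wnt list. Of 27 other endothelial genes, 17 were tested genes, and 11 passed upward and none downward at Zt +6, 1 upward (*Egfl7*) at Zt +16. Over all tested genes 49.3% passed upward and 7.62% downward at Zt +6, and 19% upward at Zt +16. Of the 11, 4 were tested only through *Snord116del* at Zt +6, the group in which they are high, *Cdh5* and *Eng* among them. The median difference at Zt +6 over all 27, untested low genes included, was 0.49. The 0.57 of all tested genes is over a set without such low genes, so the medians cannot be compared directly. *Ly6a*, a surface antigen of endothelium, and *Itm2a*, a membrane protein enriched in brain endothelium, were the highest, with 19.9 and 10.6 FPKM in WT and 34.4 and 24.8 in *Snord116del* at Zt +6. *Cdh5*, the cadherin of endothelial junctions, had 0.824 and 2.41 FPKM at Zt +6, then 0.852 and 0.825 at Zt +16. All 27 were above 0 in every group. *Plvap*, which marks leaky endothelium without a barrier, lay between 0.314 and 0.437 FPKM in all groups. *Cdh5* and *Plvap* were picked for their role and not by the rule for named genes.

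Of 14 genes of tight and adherens junctions, 9 were tested genes and 7 passed upward at Zt +6, none at Zt +16. *Tjp1*, which encodes the scaffold ZO-1, had 4.06 and 13.7 FPKM in WT and *Snord116del* at Zt +6, then 2.20 and 2.52 at Zt +16, and like *Cldn5* it passed downward between times in WT (-0.66). *Ctnnb1*, for beta-catenin of junctions and the Wnt pathway, had 24.1 and 45.1 FPKM at Zt +6, then 18.7 and 26.0 at Zt +16. Of 18 other transporters and receptors of the barrier, 11 were tested genes and 9 passed upward at Zt +6 and 1 at Zt +16, which was *Bsg*. *Bsg*, the chaperone of monocarboxylate transporters, had 61.8 and 111 FPKM at Zt +6, then 49.8 and 75.4 at Zt +16, and *Slc3a2*, the heavy chain of the large amino acid transporter, had 27.4 and 38.1 FPKM at Zt +6 and passed in neither comparison of genotypes.

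Of 17 genes of VEGF, angiopoietin and Notch signalling, 8 were tested genes, and 5 passed upward and 1 downward at Zt +6. The one downward was *Vegfb*, a ligand of *Flt1*, with 52.9 FPKM in WT against 31.0 in *Snord116del* at Zt +6, then 89.2 and 152 at Zt +16. It passed upward at Zt +16 and, like *Mfsd2a*, was higher at Zt +16 in both genotypes. *Epas1*, the hypoxia factor HIF-2 alpha of endothelium, had 11.5 and 27.7 FPKM at Zt +6, then 6.10 and 7.14 at Zt +16. Of 14 Wnt genes of the barrier, 8 were tested genes and 5 passed upward at Zt +6, none at Zt +16. *Axin2*, a target gene of the pathway, had 2.09 and 5.79 FPKM at Zt +6, then 1.15 and 1.43 at Zt +16. The shares of these lists that passed at Zt +6 stand beside 56.9% of all tested genes, 49.3% upward. At Zt +16 they stand beside 19.2%, 19% upward. Nothing particular to the barrier follows from these shares. Of the genes that passed upward at Zt +6, 1 of the junction list, 3 of the transporters, 1 of the VEGF list and 2 of the Wnt list were also tested only through *Snord116del* at Zt +6.

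Markers of other cells were counted in the same way, beside 49.3% of all tested genes upward at Zt +6 and 19% at Zt +16. Of 14 mural cell genes, 4 were tested genes and 2 passed upward at Zt +6 (*Rgs5* and *Acta2*) and 3 at Zt +16, and their summed FPKM was 25.5 and 50.9 in WT and *Snord116del* at Zt +6, then 17.3 and 32.8 at Zt +16. *Rgs5*, of pericytes, had 6.56 and 22.0 FPKM at Zt +6, then 2.77 and 4.54 at Zt +16, while *Vtn*, also of pericytes, had 9.81 and 14.2, then 8.09 and 16.9. Of 10 astrocyte genes, 8 passed upward at Zt +6 and 3 at Zt +16, with a median difference of 1.30 at Zt +6, and their sum was 414 and 640 FPKM at Zt +6, then 570 and 850 at Zt +16. Without *Aldoc* it was 139 and 379 at Zt +6, then 105 and 137 at Zt +16. Between times 6 astrocyte genes passed downward and 2 upward in WT, with a median of -0.85, and 7 downward and 1 upward in *Snord116del*, with a median of -1.74. Over all tested genes the shares were 10.3% downward and 5.71% upward in WT, and 39.1% and 25% in *Snord116del*. The medians over all tested genes were -0.04 in WT and -0.24 in *Snord116del*. *Slc1a2*, the astrocyte glutamate transporter, had 59.2 and 189 FPKM at Zt +6, then 31.5 and 47.8 at Zt +16, *Gjb6*, an astrocyte connexin, had 8.98 and 26.7, then 8.57 and 13.7, and *Aldoc*, their highest gene, had 275 and 261, then 465 and 713. Of 8 microglia genes, 7 were tested genes, and 5 passed upward at Zt +6 and 4 at Zt +16. Of 7 neuron genes present, all tested, 4 and 1 did. *C1qa*, a complement gene of microglia, had 8.78 FPKM in WT against 14.0 in *Snord116del* at Zt +6, and *Csf1r*, their growth factor receptor, had 7.09 against 14.0. The neuron genes *Snap25* and *Slc17a7*, of synaptic vesicle release and of glutamate loading in cortical cells, had 481 and 105 FPKM in WT at Zt +6 and lay above all 10 genes of the barrier. Of 8 fibroblast and meningeal genes, 6 were tested genes and 1 passed upward at each time. The gene that passed at Zt +6 was tested only through *Snord116del* at Zt +6, so the minimum itself favours its difference. Their highest, *Dcn* and *Igf2*, lay between 1.47 and 4.88 FPKM.

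In summed FPKM, blood and choroid plexus genes differed between times more than between genotypes. The 6 blood genes summed to 280 and 327 FPKM in WT and *Snord116del* at Zt +6, then to 1082 and 1160 at Zt +16. *Hba-a2*, an alpha globin, had 180 and 217 FPKM, then 653 and 732, *Hbb-b2*, a beta globin, had 62.6 and 17.97, then 409 and 401, and *Hba-a1* is listed at 0 in all groups. The other beta globin, *Hbb-b1*, went the other way, with 36.8 and 89.4 FPKM, then 18.9 and 26.0, and passed downward between times in both genotypes. *Alas2*, of heme synthesis in red cells, had 0.45 and 3.02 FPKM, then 0.972 and 1.12. Reads shared by near-identical globin copies make the level of a single globin uncertain. The 8 choroid plexus genes summed to 216 and 212 FPKM at Zt +6, then 30.4 and 37.1 at Zt +16, most of it *Ttr*, the thyroxine carrier of the plexus, with 200 and 182 FPKM, then 24.9 and 29.6, followed by *Enpp2*, with 12.6 and 24.0, then 3.71 and 5.15. Its other members, apart from *Enpp2* and *Kcnj13*, were below 1.5 FPKM in all groups. What part blood left in the vessels, choroid plexus or astrocytes have in the time differences of *Cldn5*, *Slc2a1* and *Mfsd2a* was not tested.

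The mean profile of the 10 genes, centred on the log2(FPKM + 1) scale, was -0.19 in WT against 0.66 in *Snord116del* at Zt +6, then -0.37 and -0.10 at Zt +16. *Slco1c1* was nearest to it, with a root mean square difference of 0.062 over the 4 groups, and *Mfsd2a* farthest, with 0.885. Among 10289 other tested genes the nearest were *Rbbp9*, *Hdac5* and *Usp27x*, each at 0.0095, *2810453I06Rik* at 0.015 and *Rnf185* at 0.016. With 4 values to a profile many genes come close to any shape, and none of these 5 was in any of the lists.

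ChIRP peaks were counted inside each gene or within 2 kb of it. WT *116HG* replicate 1 had 28 peaks at 9 of the 10 genes, all but *Kdr*, in a list where 93.6% of 10165 tested genes had one. *Slc2a1* held 9 of the 28. The centres of 25 lay in exons, and 14 in the last 10% of the gene. Over all peaks of that list, near a gene or not, 71.6% were centred in an exon of any gene. Of the peaks at tested genes, 36.84% lay in the last 10% of the gene. Replicate 2 had 3 peaks, the intronic ones of *Pecam1*, in a list where 2.27% of peaks were centred in exons and 17.5% of tested genes had a peak. Replicate 1 and replicate 2 thus differed in where in genes their peaks lay. The 3 intronic peaks of replicate 1, in *Pecam1*, *Flt1* and *Tek*, all held the 14-base run printed in capitals above, and none of its 25 exonic peaks did. That of *Pecam1* covers a replicate 2 peak from which the run was taken, so it had to hold the run. Of all replicate 1 peaks read, 5.75% held the run, and the share among intronic peaks was not counted.

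Peaks of the 2 WT *116HG* libraries within 10 kb of each other, the distance used in the methods, were found at 2 genes, *Pecam1* and *Ly6c1*, beside 18% of tested genes. At *Ly6c1* the replicate 2 peak lay 7865 bases outside the gene. Direct overlap was seen at *Pecam1* alone, beside 4.56% of tested genes, and the authors' fold over input of its replicate 1 peak was 178.5. The control libraries also had peaks. *Snord116del* brain with *116HG* oligos had 3, of which 1 was in *Tek* and 2 in *Abcb1a*, in a list that reached 2.86% of tested genes. With NSC oligos it had 1 in *Cldn5* and 1 in *Abcb1a*, in a list that reached 10.6%. WT NSC had none, in a list that reached 2.53%. The NSC peak in *Abcb1a* overlapped a *116HG* peak of *Snord116del* brain, and the NSC peak in *Cldn5* overlapped a WT *116HG* replicate 1 peak. Over the 10 genes, the number of replicate 1 peaks had a Spearman rho of 0.39 with WT FPKM at Zt +6 and of 0.03 with transcript length, given as a description.

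**Figure D4:**
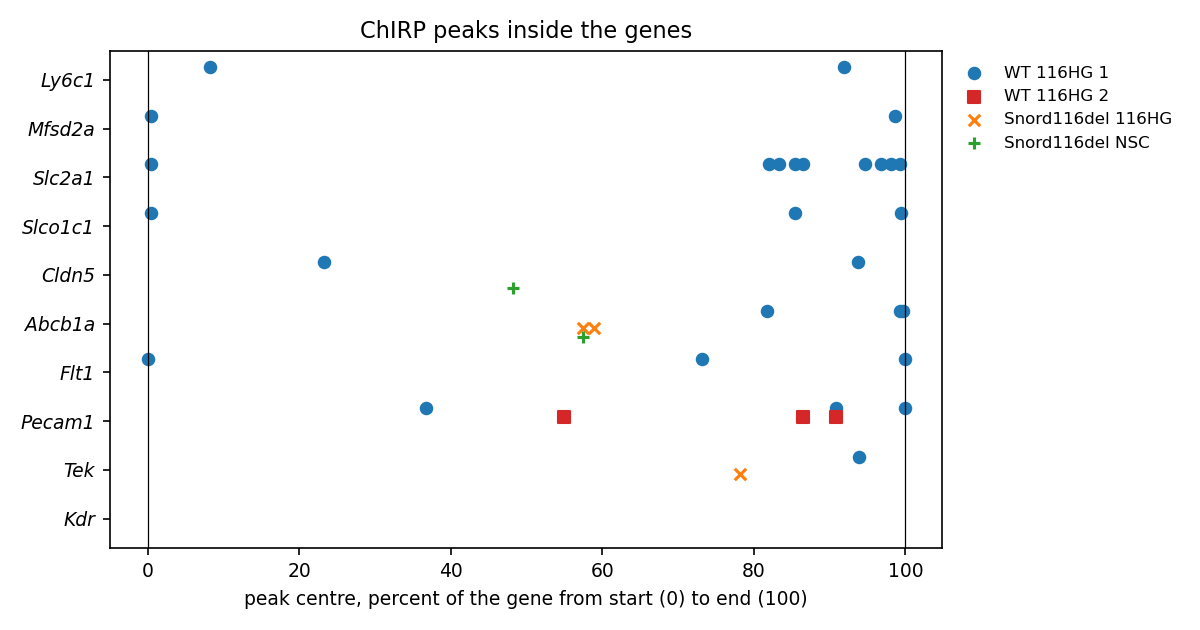
Centres of ChIRP peaks inside the 10 genes, as percent of the gene from its start (0) to its end (100), with 1 row per gene and 1 symbol per library; WT NSC had no peak there and is not drawn. Of the replicate 1 peaks, 14 of 28 are in the last 10% of the gene, beside 36.84% at all tested genes, and the 3 replicate 2 peaks are all in *Pecam1*.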

How the data were processed

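RNA-seq values were FPKM per group as deposited by the authors, who aligned reads with TopHat2 2.0.5 to mm9 and ran Cuffdiff 2.0.2 over the mice of a group, per the labels. The authors' log2 fold change, q-value and significance columns were not used. ChIRP peaks were called by the authors per library (Bowtie2 2.0.0, MACS 1.4.2) and filtered on the false discovery rate and on fold over input. The authors gave each peak its enrichment as a ratio to input, except in replicate 2, which has positions only. Values were taken as log2(FPKM + 1), a scale that understates the differences of low genes. The library kit is not given as marking strand.

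The 10 genes and the gene lists were chosen with earlier results of these data known. Named genes were the 10; of each list the 2 with the highest mean FPKM and up to 4 past the fold rule in both genotype comparisons; and the 5 nearest in profile. A gene that this rule names and a peak sequence are not reported here. Transcript length and GC content came from the longest coding transcript in GENCODE for NCBIM37, and 96.58% of tested genes had a value. Trends were removed with a loess curve (fraction 0.3). Groups were also scaled to the same median or FPKM total, or quantile normalized. Settings with the GC trend removed, and the minimum set without *Snord116del* Zt +6, were chosen after seeing the data. Steps were tested on simulated data. Python 3.11.15, pandas 2.3.3, statsmodels 0.14.6 and bedtools were used.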

Additional observations from a re-analysis of the deposited data

Results flagged for a closer look

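For *Tek* the genotype difference took opposite directions at the 2 times: *Snord116del* was above WT by 0.57 on the log2(FPKM + 1) scale at Zt +6 and below it by 0.06 at Zt +16, a gap of 0.62 between the times. Each direction rests on 1 value per group, the levels are between 0.475 and 1.53 FPKM, and the difference was not tested. With the trend on transcript length removed, both values were below 0, at -0.34 and -0.35.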

How the results depend on the processing

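Of the 10 genes, 7 passed the fold rule at Zt +6. The count was 2 with groups scaled to the same median, 3 under quantile normalization, 2 with the length trend removed, 3 with the GC trend removed, 2 with length and then GC removed, 3 at a fold of at least 2, and 4 with the minimum of 1 FPKM set on the 3 groups other than *Snord116del* Zt +6. The median difference, 0.88, went to 0.15 (same median), 0.39 (quantile), 0.38 (length), 0.26 (GC) and 0.32 (length and GC). Scaling to the same total and a pseudocount of 0.1 kept the count at 7, with medians of 0.90 and 1.01. At Zt +16 the count went from 2 to 0 with the same median, quantile normalization, the same total, a fold of at least 2 and each removal of a trend. It stayed at 2 with the minimum set on the other 3 groups and at a pseudocount of 0.1. Between times in WT it went from 2 to 0 at a fold of at least 2 and to 4, all downward, under the same total. Between times in *Snord116del* 7 passed, and 4 did with the minimum set on the other 3 groups; the median, -0.74, was -0.37 with the same median, -1.63 under the same total and -1.34 at a pseudocount of 0.1. The median difference at Zt +16, 0.20 as deposited, turned to -0.0027 (same median), -0.00036 (quantile), -0.093 (same total), -0.18 (length), -0.19 (GC) and -0.15 (length and GC). *Ly6c1* at Zt +6 turned to -0.10 with the same median, and between times in *Snord116del* from 0.09 to -0.82 (quantile), -0.98 (same total), -1.24 (length) and -1.23 (length and GC). *Slco1c1* between times in *Snord116del* turned to 0.04 with the GC trend removed. Replicated peaks were found at 1 gene instead of 2 when overlap or a distance of 2 kb was required. The 2 settings with the GC trend and the minimum on 3 groups were chosen after seeing the data. The causes were not tested, beyond what the rescaling itself does. Each group has 1 value, so no mouse could be left out. No paired analysis was possible because the table has no value per mouse.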
